A study of Mus musculus with 8 samples.

Results

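The genes described here are those of the laminin chains and of nidogen-1, 9 genes among the 15047 gene symbols measured in the mouse pancreas. They were taken by a list of symbols, Lama2, Lama3, Lama4, Lama5, Lamb1, Lamb2, Lamb3, Lamc1 and Nid1, and values were found for all 9. The list was set with earlier results of these data known. Lama1, Lamc3 and Nid2 were also measured but are not among the 9. RNA-Seq was made from pancreas tissue of 8 male mice in 3 groups. LFD mice (n = 3) were C57BL/6 WT mice fed a low-fat diet for 10 weeks, starting at 4 weeks of age, and HFD mice (n = 3) were C57BL/6 WT mice that received a high-fat diet, with 60% of the calories from fat, over the same time. The ob/ob mice (n = 2) were leptin-deficient C57BL/6J mice on standard rodent chow, begun at the same age, so they differed from LFD mice in both genotype and chow, and the weeks on chow are not stated for them. According to the paper, the pancreas of these mice had received an orthotopic transplant of mT organoids, which were grown from mouse pancreatic tumors and injected with Matrigel. The labels do not mention the transplant. The tissue could thus hold normal pancreas, transplanted epithelium and stroma, which these values do not separate.

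Laminins are the sheet-forming proteins of basement membranes, each a cross-shaped trimer of an alpha, a beta and a gamma chain. The alpha chain carries the domains that bind cell receptors such as integrins and dystroglycan, whereas the beta and gamma chains help to join the trimers into a network. Nidogens link the laminin network, through the gamma chain of Lamc1, to the collagen IV network. In the pancreas, basement membranes surround acini, ducts, blood vessels, nerves and islets. Lama3 and Lamb3 are chains of the laminin under stratified and glandular epithelium that anchors cells through integrins, while Lama4 is the alpha chain typical of blood vessels, Lama2 that of muscle and peripheral nerve, and Lama5 that of many mature epithelia and vessels.

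All values are rlog values, which are on the log2 scale, are corrected for library size and shrink the differences of genes with few reads. They ranged from 0.466 to 24.3 in the table, with medians per mouse between 7.09 and 7.25, and no 2 mice held identical values. The sequencing depth is unknown, so the only error is the spread between mice. Differences were tested with limma, and adjusted p-values are Benjamini-Hochberg values over all genes. A mean of 28 acinar genes lay at 17.12 to 17.62 in LFD mice, at 17.46, 15.38 and 13.46 in HFD replicates 1 to 3 and at 16.76 and 13.77 in ob/ob replicates 1 and 2. HFD replicate 1 thus lay within the LFD range, apart from the other HFD mice, and results that rest on it are given with and without it. Lep, the gene of leptin, lay between 5.86 and 6.28 in LFD, between 7.26 and 7.31 in HFD, and at 8.12 and 6.78 in ob/ob. The ob allele carries a premature stop codon, so this RNA level does not check the genotype. In pancreas homogenates, fewer cells of a type and less RNA per cell cannot be told apart.

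Among the alpha chains, Lama3 varied most. Lama3 (chromosome 18 of GRCm38, 12333819 to 12583013, plus strand, Gencode M21) had rlog values of 8.34, 8.50 and 7.79 in LFD replicates 1 to 3, of 8.50, 10.50 and 11.55 in HFD replicates 1 to 3, and of 8.99 and 8.69 in ob/ob replicates 1 and 2. HFD replicates 2 and 3 stood well above the other 6 mice, whereas HFD replicate 1 was barely above the highest LFD mouse. The range over the 8 mice was 3.76, a 13.5-fold range on the linear scale, and the variance of Lama3 was higher than that of 97.8% of all genes. The mean difference between HFD and LFD was 1.97 (standard error 0.64, 3.93-fold, adjusted p = 0.194), and that between ob/ob and LFD was 0.63 (standard error 0.72, adjusted p = 0.625). Without HFD replicate 1, the difference between HFD and LFD was 2.82 (standard error 0.33, adjusted p = 0.0112). Lama3 has 2 coding transcripts in the annotation, of 10548 and 5551 bases, which the gene value joins.

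Lama4 (chromosome 10, 38965515 to 39110188, plus strand) had values of 8.68, 8.46 and 8.12 in LFD, 8.40, 9.10 and 9.50 in HFD, and 9.23 and 9.61 in ob/ob. Both ob/ob mice were above all LFD mice, as were HFD replicates 2 and 3, while HFD replicate 1 lay within the LFD range. The difference was 1.00 between ob/ob and LFD (standard error 0.32, unadjusted p = 0.0136 and adjusted p = 0.21 with limma) and 0.58 between HFD and LFD (standard error 0.29, adjusted p = 0.292). In HFD without replicate 1 it was 0.88 (standard error 0.23, adjusted p = 0.0351).

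Lama5 (chromosome 2, 180176373 to 180225859, minus strand) had values of 8.97, 8.65 and 9.27 in LFD, 9.50, 9.83 and 9.82 in HFD, and 9.18 and 9.59 in ob/ob. It was the gene with the closest HFD mice, with an SD of 0.188, and all 3 HFD mice were above all LFD mice, HFD replicate 1 included. The difference between HFD and LFD was 0.75 (standard error 0.21, 1.68-fold), with the smallest p of the 9 genes in this comparison (unadjusted p = 0.00673 and adjusted p = 0.18 with limma). In ob/ob mice the difference was 0.42 (standard error 0.24, adjusted p = 0.344), with ob/ob replicate 1 within the LFD range. The stretch before the start site of Lama5 is shown because this gene was above the LFD mice in every HFD mouse. It was taken from RefSeq on GRCm38.p6 (chr2:180225860-180226109, minus strand) and is printed 5′ to 3′, with capitals for GGGCGG, a motif bound by Sp factors, on either strand.
Lama5: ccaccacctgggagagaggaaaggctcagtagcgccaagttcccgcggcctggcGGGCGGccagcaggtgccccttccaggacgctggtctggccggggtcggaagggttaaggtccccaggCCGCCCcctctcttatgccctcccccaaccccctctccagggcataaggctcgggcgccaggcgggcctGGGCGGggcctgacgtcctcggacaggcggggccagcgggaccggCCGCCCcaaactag
The stretch held 4 matches to GGGCGG and none to the CCAAT box, the TATA box (TATAAA) or the AP-1 motif (TGANTCA). Over all promoters of the table, the share of windows of 300 bases with a match on either strand was 35.7% for GGGCGG, 37.4% for the CCAAT box, 13.6% for the TATA box and 7.81% for the AP-1 motif. A match describes the letters of the window and does not show a bound factor.

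Lama2 (chromosome 10, 26980036 to 27619758, minus strand) showed no such pattern. Its values were 8.997, 8.49 and 8.26 in LFD, 8.73, 8.20 and 8.74 in HFD, and 8.88 and 8.20 in ob/ob. The groups overlapped, over a range of 0.796. The difference was -0.02 between HFD and LFD, with a 95% interval from -0.64 to 0.60, and -0.04 between ob/ob and LFD, with an interval from -0.73 to 0.65. A list of Schwann cell and nerve genes, of which 6 of 10 could be used, was also close in all mice, at 5.82 to 6.27. In the annotation, exons of Lama2, Lama3 and Nid1 overlap genes on the opposite strand, Gm48084, Gm29200 and Gm48682. Whether the libraries kept the strand is not given in the sources used here, so reads of these pairs may not be told apart.

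**Figure D1:**
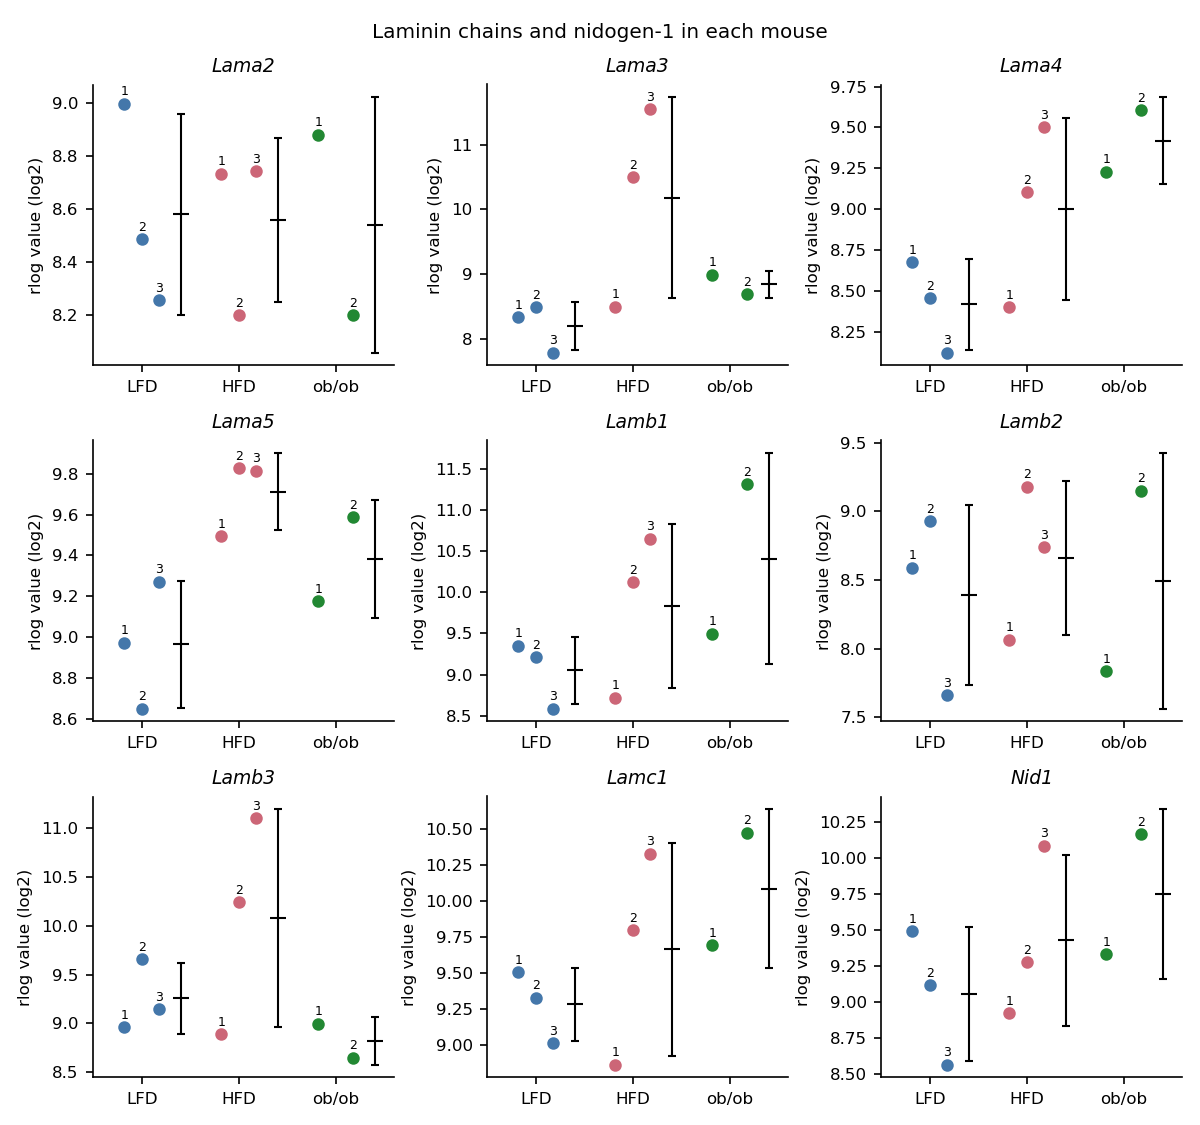
Each panel plots the rlog values (log2 scale, vertical axis, scaled per panel and not from 0) of 1 gene in LFD (blue), HFD (red) and ob/ob (green) mice, with the replicate number above each point and the mean and SD of the group as a black bar. HFD replicates 2 and 3 stand high for Lama3 and Lamb3, at 10.50 and 11.55 and at 10.24 and 11.10, whereas ob/ob replicate 2 is the highest mouse for Lama4, Lamb1, Lamc1 and Nid1.

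Of the beta chains, Lamb1 (chromosome 12, 31265234 to 31329644, plus strand), the partner of most alpha chains, had values of 9.35, 9.22 and 8.59 in LFD, 8.72, 10.12 and 10.65 in HFD, and 9.50 and 11.31 in ob/ob. Both ob/ob mice and HFD replicates 2 and 3 were above all LFD mice, and ob/ob replicate 2 was the highest of the 8. The difference was 1.36 between ob/ob and LFD (standard error 0.64, unadjusted p = 0.064 and adjusted p = 0.283 with limma) and 0.78 between HFD and LFD (standard error 0.57, adjusted p = 0.448). On leaving out each mouse in turn, it lay between 0.45 and 2.26 in ob/ob, the lowest without ob/ob replicate 2, and between 0.37 and 1.34 in HFD.

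Lamb3 (chromosome 1, 193207699 to 193343878, plus strand), the beta chain that pairs with Lama3, had values of 8.96, 9.66 and 9.15 in LFD, 8.89, 10.24 and 11.10 in HFD, and 8.997 and 8.65 in ob/ob. HFD replicates 2 and 3 were the highest mice, and HFD replicate 1 and ob/ob replicate 2 were the lowest. The difference was 0.82 between HFD and LFD (standard error 0.48, adjusted p = 0.358) and -0.43 between ob/ob and LFD (standard error 0.54, adjusted p = 0.66). Without HFD replicate 1, the first was 1.42 (standard error 0.30, adjusted p = 0.0221).

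Lamb2 (chromosome 9, 108479736 to 108490530, plus strand), the beta chain of vessels, the synapse and the kidney glomerulus, had values of 8.59, 8.93 and 7.66 in LFD, 8.06, 9.18 and 8.74 in HFD, and 7.84 and 9.15 in ob/ob. The 3 groups overlapped. The difference was 0.27 between HFD and LFD (95% interval from -0.76 to 1.29) and 0.10 between ob/ob and LFD (95% interval from -1.04 to 1.24).

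Stretches before the start sites of Lamb1 and Lamb3 are shown because in ob/ob replicate 2 Lamb1 was at the highest and Lamb3 at the lowest value of the 8 mice. Both come from RefSeq on GRCm38.p6 and are on the plus strand, Lamb1 at chr12:31265043-31265233 and Lamb3 at chr1:193301744-193301992, where the RefSeq start of Lamb3 lies within the gene of Gencode M21. Capitals mark GGGCGG and CCAAT on either strand.
Lamb1: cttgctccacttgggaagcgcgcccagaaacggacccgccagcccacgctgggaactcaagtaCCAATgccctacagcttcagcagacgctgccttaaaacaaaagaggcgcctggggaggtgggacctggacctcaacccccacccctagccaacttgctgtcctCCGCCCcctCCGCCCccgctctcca
Lamb3: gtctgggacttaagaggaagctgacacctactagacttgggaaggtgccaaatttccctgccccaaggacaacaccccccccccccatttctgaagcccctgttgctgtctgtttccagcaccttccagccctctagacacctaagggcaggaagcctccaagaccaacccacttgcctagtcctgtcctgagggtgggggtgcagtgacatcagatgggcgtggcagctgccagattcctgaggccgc
The Lamb1 stretch held 2 matches to GGGCGG, both as CCGCCC, and 1 to CCAAT, the box bound by NF-Y, whereas the Lamb3 stretch held none of the 4 motifs. The share of G and C was 63.9% and 58.6% in these stretches. In their full windows of 300 bases it was 63.7% and 59.3%, beside a median of 52.7% over all promoters of the table. A further RefSeq window of Lamb3, at chr1:193301993-193302292, also held none of the 4 motifs.

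Lamc1 (chromosome 1, 153218922 to 153332786, minus strand), the gamma chain of most laminins and the one that nidogens bind, had values of 9.50, 9.33 and 9.01 in LFD, 8.86, 9.80 and 10.33 in HFD, and 9.69 and 10.47 in ob/ob. Both ob/ob mice were above all LFD mice. HFD replicate 1 was the lowest of the 8 mice and HFD replicate 3 the second highest. The difference was 0.80 between ob/ob and LFD (standard error 0.41, adjusted p = 0.312) and 0.38 between HFD and LFD (standard error 0.37, adjusted p = 0.568). On leaving out each mouse in turn, the first went from 0.41 without ob/ob replicate 2 to 1.19 without ob/ob replicate 1, and the second from 0.049 without HFD replicate 3 to 0.78 without HFD replicate 1.

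Nid1 (chromosome 13, 13437551 to 13512269, plus strand), which encodes the linker nidogen-1, had values of 9.49, 9.12 and 8.57 in LFD, 8.93, 9.28 and 10.09 in HFD, and 9.34 and 10.17 in ob/ob. Only HFD replicate 3 and ob/ob replicate 2 were above all LFD mice. The difference was 0.69 between ob/ob and LFD (standard error 0.41, adjusted p = 0.357) and 0.37 between HFD and LFD (standard error 0.36, adjusted p = 0.575). Leaving out single mice took the first from 0.28 without ob/ob replicate 2 to 1.11 without ob/ob replicate 1, and the second from 0.042 without HFD replicate 3 to 0.62 without HFD replicate 1. Its stretch before the start site, from RefSeq on GRCm38.p6 (chr13:13437352-13437550, plus strand), is shown beside that of Lamb1 because both genes were highest in ob/ob replicate 2, with the same motifs in capitals.
Nid1: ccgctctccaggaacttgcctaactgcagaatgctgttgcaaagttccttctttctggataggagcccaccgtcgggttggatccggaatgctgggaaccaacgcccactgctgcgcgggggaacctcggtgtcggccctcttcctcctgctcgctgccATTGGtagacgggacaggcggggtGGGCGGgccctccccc
It held 1 match to GGGCGG and 1 to CCAAT. Both matches lie near the 3′ end of the stretch, as do those to GGGCGG in Lamb1. The stretches of Nid1 and Lamb1 end just before the gene starts of Gencode M21. Their RefSeq windows of 300 bases run on past these starts, so the place of a match in a stretch depends on this cut.

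The laminin chains Lama1 and Lamc3 and the nidogen Nid2 were described as well. Lama1, an alpha chain best known from the embryo, had low rlog values, at 4.69, 4.60 and 4.93 in LFD, 5.34, 6.07 and 6.85 in HFD, and 5.90 and 6.39 in ob/ob. Each of the 5 obese mice exceeded all LFD mice, with a difference of 1.38 between obese and LFD mice (standard error 0.35, adjusted p = 0.107). Lamc3 was the chain with the opposite direction, at 6.85, 6.45 and 6.56 in LFD, 6.23, 5.40 and 5.003 in HFD, and 5.79 and 4.59 in ob/ob. All 5 obese mice were below all LFD mice, as held for 9.05% of all genes. The difference was -1.26 (standard error 0.37, adjusted p = 0.118 with limma). Nid2, the other nidogen, differed by 0.51 in HFD (95% interval from -0.16 to 1.19) and by 0.32 in ob/ob (95% interval from -0.43 to 1.08). On leaving out HFD replicate 1, Lama1 and Lamc3 had adjusted p-values of 0.0137 and 0.0212 between obese and LFD mice with limma. In that fit, 22.1% of all genes passed the adjusted threshold. Exons of Lamc3 and Nid2 overlap Gm13441 and Rtraf on the opposite strand.

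The comparison of HFD with LFD addresses obesity from diet in mice of one strain. After adjustment, 0 of the 9 genes had a p-value under 0.05 with limma, as for all genes (0% of 15047 called). Before adjustment, 2 of the 9, Lama3 and Lama5, had a p-value under 0.05 and were higher in HFD, and none was lower, beside 11.5% of all genes higher and 8.35% lower. The same 2 genes did not overlap between the groups, which held for 12.9% of all genes on the higher side. The mean was higher in HFD for 8 of the 9 genes, and for 52.4% of all genes. Over the 9 genes the median difference was 0.58, and over all genes it was 0.03. The median of the 9 genes was 0.31 without HFD replicate 3 and 0.86 without HFD replicate 1. Without HFD replicate 1, 4 of the 9 passed adjustment, namely Lama3, Lama4, Lama5 and Lamb3, all higher in HFD, beside 18.7% of all genes. The number with an unadjusted p-value under 0.05 was 6 without HFD replicate 1 and 1 without LFD replicate 3. The share of all genes under 0.05 before adjustment is not given for these fits. These counts are thus no result about the 9 genes.

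The comparison of ob/ob with LFD addresses obesity from the lack of leptin. After adjustment, 0 of the 9 genes had a p-value under 0.05 with limma (0% of all genes), and before it 1 of the 9, Lama4, had an unadjusted p-value under 0.05 and was higher, beside 11.6% of all genes higher and 7.18% lower. Lama3, Lama4, Lamb1 and Lamc1 did not overlap between the groups, 4 of 9 with both ob/ob mice above all LFD mice, and 0 of 9 on the lower side, beside 24.1% and 21.8% of all genes. The mean was higher in ob/ob for 7 of the 9 genes, and for 53.1% of all genes. Without ob/ob replicate 2, 0 of the 9 had an unadjusted p-value under 0.05. With 2 ob/ob mice, the intervals were wide, such as -0.10 to 2.81 for Lamb1. The median difference over the 9 genes was 0.63, beside 0.04 over all genes, and it was 0.30 without ob/ob replicate 2 and 0.76 without ob/ob replicate 1. Without HFD replicate 1, which enters here only through the shared variance, 0 of the 9 genes passed adjustment (0.591% of all genes did) and 3 of the 9 had an unadjusted p-value under 0.05. The share of all genes for the last count is not given, so it is no result about the 9 genes.

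Both comparisons share the LFD mice, so their difference was tested as ob/ob against HFD. The 2 chains of epithelial laminin had the most negative differences of the 9 genes. Lamb3 was lower in ob/ob by a log2 difference of -1.25 (standard error 0.54, 95% interval from -2.49 to -0.02, unadjusted p = 0.0471 and adjusted p = 1 with limma), and Lama3 by -1.34 (standard error 0.72, 95% interval from -2.98 to 0.30, adjusted p = 1). The mean was higher in ob/ob for 4 of the 9 genes, beside 51.7% of all genes. The other 7 genes had differences between -0.33 for Lama5 and 0.57 for Lamb1. Lamb3 was the only one of the 9 genes with an unadjusted p-value under 0.05, beside 1.63% of all genes lower and 2.28% higher. That count was 0 on leaving out any single mouse other than HFD replicate 1, without which it was 2. Of the 9 genes, 0 did not overlap between ob/ob and HFD, and the shares of all genes were 7.92% higher and 5.42% lower. Without HFD replicate 1, the difference in Lama3 was -2.18 and that in Lamb3 was -1.85, and no gene of the table had an adjusted p-value under 0.05.

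With each obese group given the same weight, obese against LFD mice showed differences of 0.79 for Lama4 (standard error 0.26, unadjusted p = 0.0149 and adjusted p = 0.133 with limma) and of 0.58 for Lama5 (standard error 0.19, unadjusted p = 0.0143 and adjusted p = 0.132). These were the 2 of 9 genes with an unadjusted p-value under 0.05, beside 14.5% of all genes higher and 10.9% lower, and 0 passed adjustment (0% of all genes). For Lama3 each of the 5 obese mice exceeded the LFD mice, 1 gene of 9, beside 9.4% of all genes (9.05% on the lower side), although HFD replicate 1 was barely above the highest LFD mouse. The mean was higher in obese mice for 8 of the 9 genes, and for 53.5% of all genes. Without HFD replicate 1, Lama3, Lama4, Lama5, Lamb1 and Lamc1 had an adjusted p-value under 0.05, 5 of 9 beside 22.1% of all genes. This comparison shares its mice with those before it.

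**Figure D2:**
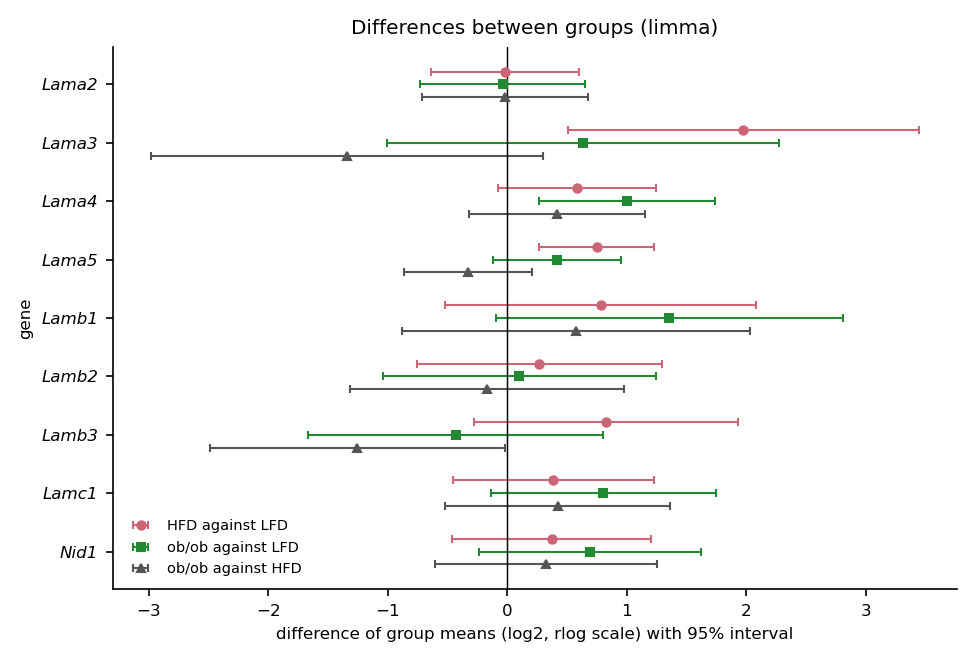
The plot gives, for each of the 9 genes, the difference of group means on the log2 scale (horizontal axis) with its 95% interval from limma, for HFD against LFD (circles), ob/ob against LFD (squares) and ob/ob against HFD (triangles). Intervals lie above 0 for Lama3 and Lama5 in HFD and for Lama4 in ob/ob, and just below 0 for Lamb3 in ob/ob against HFD, whereas those of Lama2 and Lamb2 are centred near 0.

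The chains that occur in different laminins were then compared within each mouse, which removes what both genes share in a mouse. Lama3 minus Lama4 was -0.34, 0.04 and -0.33 in LFD, 0.10, 1.40 and 2.05 in HFD, and -0.24 and -0.91 in ob/ob. All HFD mice were above all LFD and ob/ob mice, although HFD replicate 1 was only barely so. The mean was 1.18 ± 0.99 (SD, n = 3) in HFD, -0.21 ± 0.22 (SD, n = 3) in LFD and -0.58 ± 0.48 (SD, n = 2) in ob/ob.

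Lamb3 minus Lamb1 was -0.39, 0.45 and 0.56 in LFD, 0.17, 0.12 and 0.45 in HFD, and -0.50 and -2.66 in ob/ob. Both ob/ob mice were below the other 6, although ob/ob replicate 1 was only barely so. The difference in ob/ob replicate 2 was the most extreme of the 8 mice. Lamb2 minus Lamb1 was low in ob/ob as well, at -1.66 and -2.16, beside -0.93 to -0.29 in LFD and -1.91 to -0.66 in HFD. These within-mouse differences were compared by their values and not tested. By contrast, Nid1 minus Lamc1, the nidogen and the chain it binds, stayed within -0.52 to 0.06 over the 8 mice, a range of 0.583, whereas each gene alone had a range of 1.60 and 1.61. Lamb1 minus Lamc1 spanned -0.42 to 0.84, with ob/ob replicate 2 the highest. Lamb3 minus Lama3 was 0.62, 1.16 and 1.36 in LFD, 0.39, -0.26 and -0.45 in HFD, and 0.004 and -0.04 in ob/ob. The distance between these 2 chains of epithelial laminin thus changed between mice, and was larger in every LFD mouse than in any obese mouse. Lama3 alone also separated the obese from the LFD mice, which held on the higher side for 9.4% of all genes. No share over pairs of genes was computed. The separations of groups in these differences, that of Lama3 minus Lama4 included, are thus no result about the chains.

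**Figure D3:**
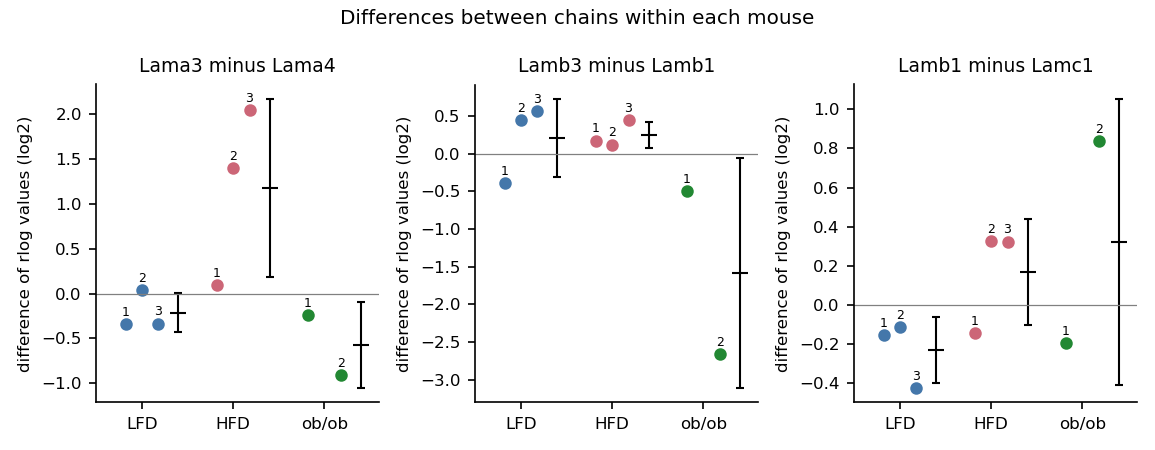
The panels plot differences of rlog values between 2 chains of the same mouse (log2 scale, vertical axis) in LFD (blue), HFD (red) and ob/ob (green) mice, with replicate numbers, a grey line at 0 and the mean and SD as a black bar. Lama3 exceeds Lama4 by 1.40 and 2.05 in HFD replicates 2 and 3, and Lamb3 is below Lamb1 by -2.66 in ob/ob replicate 2.

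Lists of cell type markers were set beside these patterns. For the 12 ductal epithelium genes the mean lay between 8.70 and 9.0001 in LFD, at 8.96, 9.83 and 9.54 in HFD, and at 9.16 and 8.48 in ob/ob. The ductal list was thus highest in HFD replicates 2 and 3 and lowest in ob/ob replicate 2, as was Lamb3. The 12 ductal genes went both ways, with a higher mean than in LFD for 9 in HFD and for 5 in ob/ob. Their differences from LFD ran from -0.86 to 1.79 in HFD and from -1.65 to 1.43 in ob/ob. Krt19, a keratin of ducts, lay between 9.26 and 9.95 in LFD, at 9.82, 11.26 and 11.47 in HFD, and at 10.05 and 8.95 in ob/ob. The mean of the 12 fibroblast and stellate cell genes lay between 8.84 and 9.25 in LFD, between 9.60 and 10.15 in HFD, and at 9.85 and 10.60 in ob/ob. This mean did not overlap between obese and LFD mice, and ob/ob replicate 2 was the highest, as for Lama4, Lamb1, Lamc1 and Nid1. Of these 12 genes, 6 were higher in every obese mouse than in any LFD mouse, beside 9.4% of all genes. For the 12 endothelium genes the range was 7.02 to 7.39 in LFD, 7.15 to 7.73 in HFD and 6.96 to 7.58 in ob/ob, so the groups overlapped. Of the defining genes of this list, Pecam1 lay between 8.48 and 9.20 over the 8 mice. Cdh5, the cadherin of endothelium, lay between 6.94 and 7.39 in LFD, at 7.0001, 7.81 and 8.94 in HFD and at 7.86 and 7.07 in ob/ob. Cdh5 was thus highest in HFD replicate 3. The endothelium list and Pecam1 were lowest in ob/ob replicate 2, at 6.96 and 8.48, the mouse in which Lama4 was highest. The leukocyte list, of which 11 of 12 genes could be used, lay between 7.13 and 7.92 in LFD, 8.08 and 8.82 in HFD, and 8.35 and 8.96 in ob/ob. Smooth muscle and pericyte, adipocyte and mesothelium lists of 10, 12 and 6 genes overlapped between HFD and LFD. The mean of the mesothelium list was lower in ob/ob, at 6.18 and 6.46, than in LFD (6.59 to 6.97) and HFD (6.67 to 6.86). Its 6 genes went both ways between ob/ob and LFD, from -1.53 to 0.84, with 2 of them higher in ob/ob. It shares Krt19 with the ductal list. Islet genes (10 of 10) lay between 7.75 and 8.39 in HFD, 8.17 and 9.11 in LFD, and 8.84 and 9.81 in ob/ob, and 4 of 10 basal-like epithelium genes between 3.71 and 5.37 in all mice. The part of these cell types in the laminin values was not tested.

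**Figure D4:**
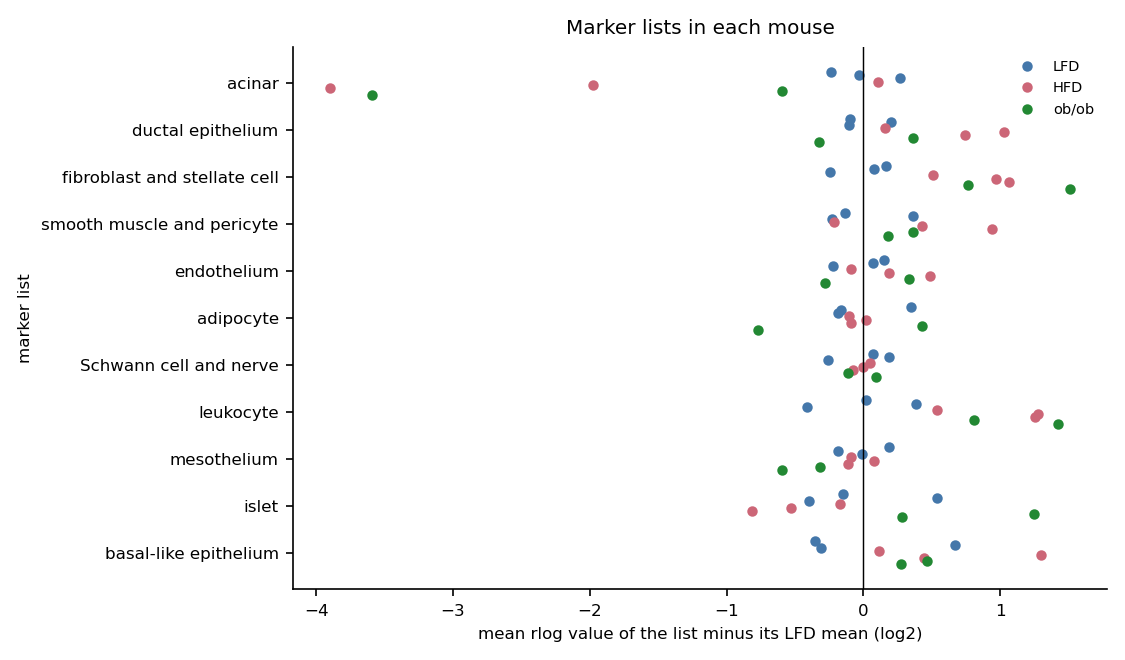
The plot gives, for each list of cell type markers (rows), the mean rlog value in each mouse minus the LFD mean of that list (log2, horizontal axis), in LFD (blue), HFD (red) and ob/ob (green). The acinar list is far below the LFD mean in HFD replicates 2 and 3 and ob/ob replicate 2, at means of 15.38, 13.46 and 13.77 beside an LFD mean of 17.35, while the fibroblast and leukocyte lists are above it in all 5 obese mice.

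The acinar genes, mostly those of digestive enzymes, varied most among the lists and moved with several laminin genes over the 8 mice. For each of the 9 genes, the relation to the mean of the 28 acinar genes was tested by a two-sided exact permutation test over all pairings, adjusted over the 9 relations. Lamb1 had Pearson r = -0.952 (exact permutation p = 0.000546, adjusted p = 0.00246) and Spearman rho = -0.976 (exact permutation p = 0.000397, adjusted p = 0.00342). Lamc1 had r = -0.936 (exact permutation p = 0.000174, adjusted p = 0.00156) and rho = -0.952 (exact permutation p = 0.00114, adjusted p = 0.00342). For Lama4, r was -0.890 (exact permutation p = 0.00124, adjusted p = 0.00372) and rho -0.952 (exact permutation p = 0.00114, adjusted p = 0.00342), and for Nid1, r was -0.885 (exact permutation p = 0.00444, adjusted p = 0.00999) and rho -0.881 (exact permutation p = 0.00724, adjusted p = 0.0163). Mice with lower acinar values thus had higher values of these 4 genes. With deviations from the group means, r was -0.961 for Lamb1, -0.964 for Lamc1, -0.891 for Lama4 and -0.875 for Nid1. Many genes of the table had such relations. An r as low as that of Lamb1 or lower was found for 1.05% of the 15047 genes, and as low as those of Lamc1, Lama4 and Nid1 for 2.08%, 5.66% and 6.21%, while 10.3% of the genes had a positive r of at least the size of that of Nid1.

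Lama3 was further from a single line, with r = -0.730 (exact permutation p = 0.0394, adjusted p = 0.0708) and rho = -0.833 (exact permutation p = 0.0154, adjusted p = 0.0277). Among the other genes, r was -0.696 for Lama5 (exact permutation p = 0.06, adjusted p = 0.09; rho = -0.571, p = 0.151, adjusted p = 0.194) and -0.617 for Lamb2 (exact permutation p = 0.103, adjusted p = 0.133; rho = -0.619, p = 0.115, adjusted p = 0.172). For Lamb3 it was -0.488 (exact permutation p = 0.212, adjusted p = 0.239; rho = -0.238, p = 0.582, adjusted p = 0.655) and for Lama2 0.253 (exact permutation p = 0.519, adjusted p = 0.519; rho = 0.071, p = 0.882, adjusted p = 0.882). ob/ob replicate 2 was the mouse away from the line for Lama3 and Lamb3, with low acinar values and values of 8.69 and 8.65. The 2 mice with acinar values farthest from the median were HFD replicate 3 and ob/ob replicate 2. Without them, r was -0.928 for Lamb1, -0.800 for Lamc1, -0.776 for Lama4, -0.507 for Nid1, -0.974 for Lama3 and -0.758 for Lamb3, and 2 of the 9 relations, those of Lamb1 and Lama3, had an adjusted p-value under 0.05. In these 6 mice, 3.48% of all genes had an r at or below that of Lamb1 and 0.585% at or below that of Lama3. The relations of Nid1, Lama4 and Lamc1 thus did not pass the test without these 2 mice.

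**Figure D5:**
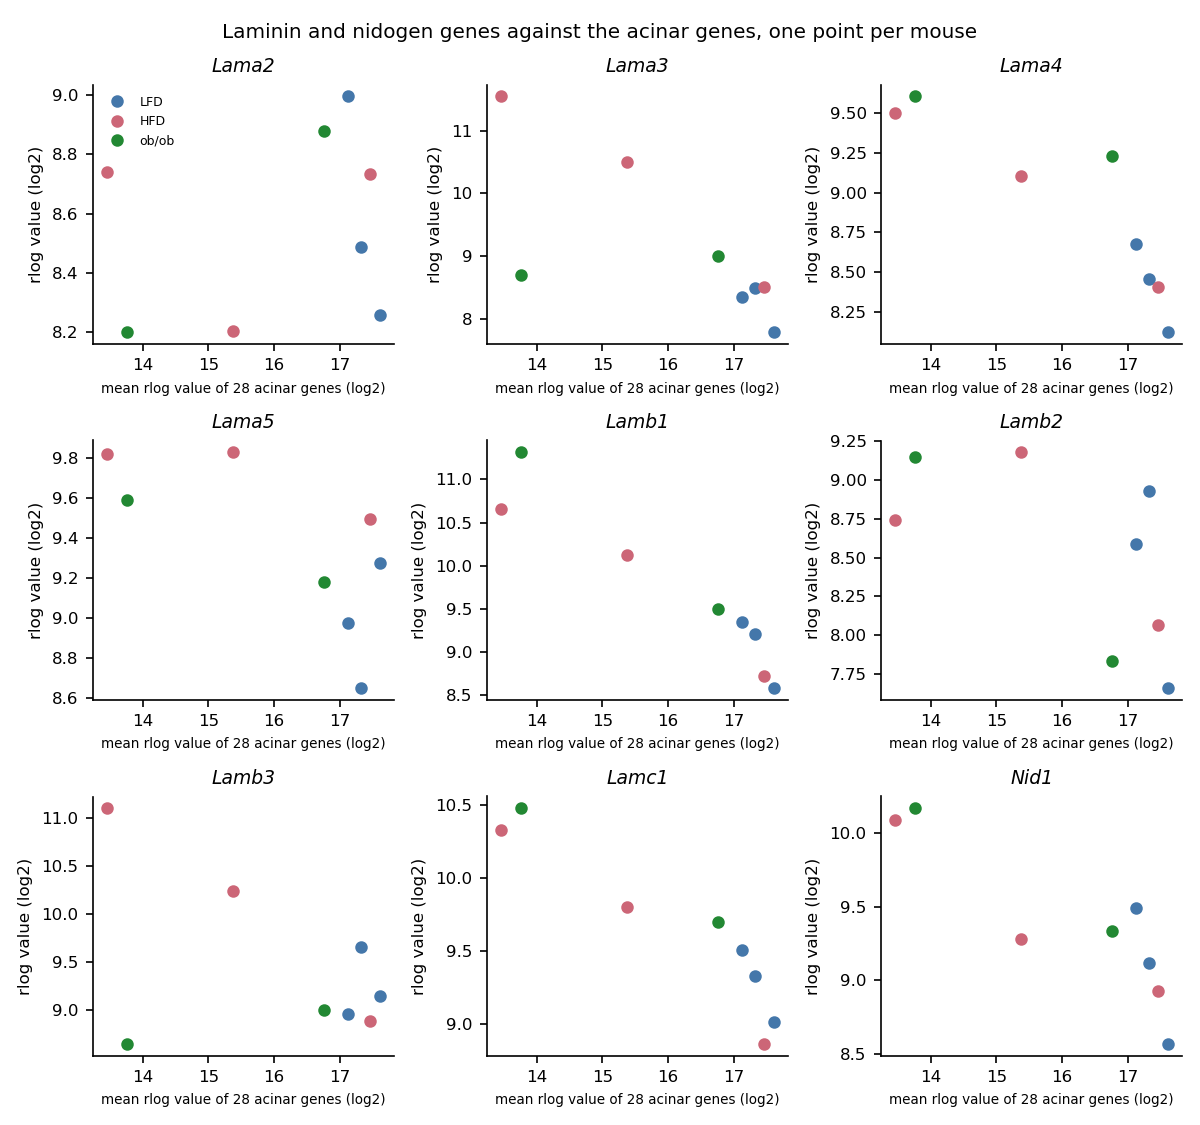
Each panel plots the rlog value of 1 gene (log2, vertical axis) against the mean of the 28 acinar genes (rlog, log2, horizontal axis), with a point for each LFD (blue), HFD (red) and ob/ob (green) mouse. Lamb1 and Lamc1 fall along a line from the LFD mice at the lower right to HFD replicate 3 and ob/ob replicate 2 at the upper left, while ob/ob replicate 2 lies low for Lama3 and Lamb3.

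With the acinar mean as a covariate in limma, the differences between HFD and LFD were 1.09 for Lama3 (standard error 0.51), 0.57 for Lama5 (standard error 0.21, unadjusted p = 0.0221 and adjusted p = 0.383) and 0.14 for Lama4 (standard error 0.20). Those of Lamb1, Lamc1 and Nid1 turned to -0.26, -0.26 and -0.21. Lama5 was the 1 of 9 genes with an unadjusted p-value under 0.05, beside 6.13% of all genes higher and 4.73% lower, and the median difference of the 9 genes was 0.11. Between ob/ob and LFD, 2 of the 9 genes had an unadjusted p-value under 0.05 with limma, namely Lama4 and Lamb3, beside 6.42% of all genes higher and 3.64% lower. The difference was 0.52 for Lama4 (standard error 0.22, adjusted p = 0.476) and -1.08 for Lamb3 (standard error 0.47, adjusted p = 0.483). Between ob/ob and HFD, 4 of the 9 genes had an unadjusted p-value under 0.05, 2 lower and 2 higher in ob/ob, beside 3.6% and 4.3% of all genes. Lama3 and Lamb3 were lower, at -1.42 (standard error 0.48, unadjusted p = 0.0147 and adjusted p = 0.513) and -1.31 (standard error 0.40, unadjusted p = 0.00834 and adjusted p = 0.477), and Lamb1 and Lamc1 were higher, at 0.48 (standard error 0.21, unadjusted p = 0.0419 and adjusted p = 0.612) and 0.36 (standard error 0.16, unadjusted p = 0.047 and adjusted p = 0.627). The acinar mean differed between the groups as well, so what belongs to the groups and what belongs to the acinar genes cannot be told apart.

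The partners of laminin were counted from lists of basement membrane components and of laminin receptors. Of 28 network and linker components, such as collagen IV, perlecan and fibulins, 0 had an adjusted p-value under 0.05 with limma in any comparison. Before adjustment, 7 had a p-value under 0.05 with a higher mean in HFD and 2 with a lower mean, beside 11.5% and 8.35% of all genes, and the counts in ob/ob were also 7 and 2, beside 11.6% and 7.18%, with median differences of 0.36 and 0.29 beside 0.03 and 0.04 over all genes. The 3 with the largest difference between obese and LFD mice were Sparc (1.65, standard error 0.36, adjusted p = 0.0962), a collagen-binding protein of remodelled matrix, Frem1 (1.502, standard error 0.28, adjusted p = 0.0853), of the Fraser complex, and Fbln2 (1.44, standard error 0.50, adjusted p = 0.141), a fibulin that binds laminin and nidogen. Sparc was at 9.99 to 10.77 in LFD, 10.95, 12.14 and 12.36 in HFD, and 12.10 and 12.85 in ob/ob. No obese mouse thus overlapped with LFD, which held on the higher side for 9.4% of all genes. With HFD replicate 1 left out, each of these 3 genes passed adjustment in obese against LFD mice, as 22.1% of all genes did, and Frem1 did so without ob/ob replicate 1 as well.

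Of 13 laminin receptors and their anchoring proteins, 12 were analysed and 0 had an adjusted p-value under 0.05 with limma. Before adjustment, 3 had a p-value under 0.05 with a higher mean in HFD and 0 with a lower mean, and the counts in ob/ob were 3 and 1, beside the same shares of all genes as above (11.5% and 8.35% in HFD, 11.6% and 7.18% in ob/ob). The largest differences between obese and LFD mice were those of Itga2 (1.70, standard error 0.51, adjusted p = 0.121), an integrin alpha chain for collagen and laminin, Itga3 (1.04, standard error 0.48, adjusted p = 0.214), the integrin alpha chain for the laminins of Lama3 and Lama5, and Dst (0.87, standard error 0.34, adjusted p = 0.163), a linker of hemidesmosomes to keratin. Itga2 had values of 7.00, 7.45 and 6.69 in LFD, 7.96, 10.16 and 10.29 in HFD, and 8.30 and 7.75 in ob/ob. HFD replicates 2 and 3 were the highest mice, as for Lama3 and Lamb3. Its difference between HFD and LFD was 2.42 (standard error 0.57, 5.37-fold, adjusted p = 0.176) and that between ob/ob and HFD was -1.44 (standard error 0.63, adjusted p = 1). Itga3 was at 10.10 and 10.58 in HFD replicates 2 and 3, and between 8.06 and 9.77 in the other mice. Itga2, Itga3 and Dst passed adjustment in obese against LFD mice once HFD replicate 1 was left out, as 22.1% of all genes did, and they were named for having the largest differences of the list.

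To compare levels between genes, the rlog values were put on a scale per kb of the longest coding transcript, as log2 of the linear value per kb. In LFD mice Lamb3 was the highest of the 9 genes, at 6.97 ± 0.36 (SD, n = 3), followed by Lamb1 (6.52 ± 0.41), Nid1 (6.45 ± 0.46), Lamc1 (6.35 ± 0.25), Lamb2 (5.90 ± 0.66), Lama4 (5.82 ± 0.28), Lama5 (5.45 ± 0.31), Lama2 (5.31 ± 0.38) and Lama3 (4.81 ± 0.37). Of the neighbours in this order, Lama2 was above Lama3 in all 3 mice, and the order of every other pair of neighbours changed in at least 1 mouse, so these do not differ beyond their spread. In HFD mice Lama3 was the fourth of the 9 genes, at 6.78 ± 1.55 (SD, n = 3), with Lamb3 (7.80 ± 1.11), Lamb1 (7.30 ± 1.00) and Nid1 (6.82 ± 0.60) above it. Of the neighbours in HFD, Lamb3 was above Lamb1 in all 3 mice, by 0.49 ± 0.18, as were Lamc1 above Lama4 and Lamb2 above Lama2. The place of Lama3 was not fixed beyond its spread, since Nid1 was above it in only 1 of 3 mice, by a mean of 0.04 ± 1.03, and Lama3 was above Lamc1, the next gene, in 2 of 3. In ob/ob mice the order began with Lamb1 (7.87 ± 1.28, n = 2), Lamc1 (7.15 ± 0.55) and Nid1 (7.15 ± 0.59), and Lamb3 was the fifth at 6.54 ± 0.25. Lamc1 was above Nid1, Lama4 above Lamb3, and Lamb3 above Lamb2 in only 1 of the 2 mice each, so these neighbours do not differ beyond their spread. Taking the shorter transcript of Lama3 would raise its level per kb by 0.93 on the log2 scale, and the shrinkage of rlog also limits this scale.

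For each gene, the 3 genes of the table whose values were most alike over the 8 mice were found by Pearson r, as a description with no test, since they are the extremes of all genes over mice that share their groups and acinar values. For Lama3 they were Adamdec1 (r = 0.993), Aldh1a3 (0.991), a retinaldehyde dehydrogenase, and Cdh17 (0.985), an intestinal cadherin. Lamb3 was most like Smpd3 (0.977), H2-Q10 (0.975) and Krt8 (0.973), a keratin of simple epithelium. Lama4 was most like Itsn1 (0.993), Tnfrsf1b (0.990), a TNF receptor, and Cd93 (0.989), a receptor of endothelium. Lamb1 was most like Mir22hg (0.994), Glb1l (0.993) and Rac1 (0.990), a small GTPase, Lamc1 most like Abcc5 (0.992), Ttyh2 (0.991) and 2310022B05Rik (0.985), and Nid1 most like Celf2 (0.993), Paxbp1 (0.979) and Daam1 (0.979). Lama5 was most like Aida (0.965), Hspbap1 (0.964) and Ifngr2 (0.962), Lamb2 most like Sertad3 (0.977), A930004D18Rik (0.974) and Fbxl12os (0.960), and Lama2 most like Galnt16 (0.945), Vmn1r203 (0.919) and 1700047I17Rik2 (0.919). None of the 9 genes was among the 3 most alike of another.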

How the data were processed

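Pancreas RNA of 8 male mice was sequenced, and the mice were grouped by the labels into LFD (n = 3), HFD (n = 3) and ob/ob (n = 2). Replicates are separate samples in the labels. Reads were checked with FastQC by the authors, who used Salmon 0.11.3 on the transcripts of Gencode M18 (GRCm38), joined them per gene with tximport, and deposited rlog values of DESeq2 1.22.2 on the log2 scale for 15047 gene symbols, after a filter not described in the sources used here (versions from the submitters' processing notes). Counts were not used here, so no count test was run and precision rests on the spread between mice. All columns matched a sample.

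On these values, limma 3.58.1 (R 4.3.3) was fitted to all 8 mice with a mean per group and the trend of the variance on expression, with adjustment over all genes by the Benjamini-Hochberg method and a threshold of 0.05. Relations to the mean of 28 acinar genes were tested by exact permutation over the 40320 pairings (SciPy 1.17.1, Python 3.11.15). The limma step was tested on simulated data. The 9 genes and all lists were chosen with earlier results of these data known, and no set test was run. All 9 genes were named in every mouse, of each list of partners the 3 genes with the largest difference between obese and LFD mice, and for each of the 9 the 3 most alike genes. Lama1, Lamc3 and Nid2 were described in full beyond this rule, and some results are not reported here. Promoters came from RefSeq (GRCm38.p6) and matched 6 of the 9 genes, and of these the printed stretches were chosen with the values known. Gene positions are those of Gencode M21. As alternatives, the trend was dropped, only the compared groups were fitted, genes with a mean rlog under 5 were left out, and the fits were repeated with centring on medians, quantile normalization, a replicate block, the acinar mean as a covariate, and without each mouse. Cell type markers were used as lists, and Lep, Krt19, Pecam1 and Cdh5 were named after their values were seen. The paper's other assays were not analysed here.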

Additional observations from a re-analysis of the deposited data

How the results depend on the processing

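The results for the 9 genes depended most on which mice entered and on the acinar covariate. Some unadjusted counts of the 9 genes stand here or above without a share of all genes. Such counts describe the setting and give no result about these genes. With the acinar covariate, the number of the 9 genes with an unadjusted p-value under 0.05 was 1 in HFD against LFD (2 without it), 2 in ob/ob against LFD (1), 4 in ob/ob against HFD (1) and 0 in obese against LFD (2). The number of all genes with an adjusted p-value under 0.05 was 1 for ob/ob against LFD, 1 for ob/ob against HFD and 1 for obese against LFD. The median difference of the 9 genes was then 0.108 for HFD against LFD (0.583 without it), 0.101 for ob/ob against LFD (0.635) and -0.014 for obese against LFD (0.582). Directions turned with the covariate for Lama2 (0.11), Lamb1 (-0.26), Lamb2 (-0.28), Lamc1 (-0.26) and Nid1 (-0.21) in HFD against LFD, for Lama2 (0.10), Lama3 (-0.33) and Lamb2 (-0.50) in ob/ob against LFD, and for Lama2 (0.10), Lamb1 (-0.014), Lamb2 (-0.39), Lamb3 (-0.42), Lamc1 (-0.081) and Nid1 (-0.071) in obese against LFD. The cause was not tested.

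With only the groups compared, the number of all genes with an adjusted p-value under 0.05 was 1 in HFD against LFD and 38 in ob/ob against LFD, and in the latter 4 of the 9 genes passed 0.05 before adjustment. The count of the 9 genes in ob/ob against HFD was 0 with the variance without the trend, with only the groups compared, in the genes whose mean rlog was at least 5, with quantile normalization and with the replicate block. Under quantile normalization the median difference of the 9 genes in that comparison, that of Lama2, was 0.0023. Without the 2 mice farthest from the median acinar value, 2 relations to the acinar mean passed adjustment, in place of 4. Median centring changed no direction and no side of the threshold of these results.

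The replicate numbers do not pair the mice, which are different animals. The deviations of same-numbered mice from their group means correlated with -0.06, 0.11 and -0.28 between LFD and HFD, with -0.10 and 0.13 between LFD and ob/ob, and with 0.59 and 0.30 between HFD and ob/ob, so not every pair was over 0.1. Only 2 numbers were shared with ob/ob, whose 2 mice deviate by the same amount in opposite directions. With the replicate block, 2 of the 9 genes had an unadjusted p-value under 0.05 in ob/ob against LFD, and 4 in obese against LFD, and Lamb2 in ob/ob against LFD turned to -0.063.

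On leaving out each mouse in turn, with a lone ob/ob mouse assumed to vary like the other groups, genes past the adjusted threshold numbered 0 to 2812 in HFD against LFD, 0 to 89 in ob/ob against LFD, 0 to 1 in ob/ob against HFD and 0 to 3326 in obese against LFD, each highest without HFD replicate 1 except in ob/ob against HFD, where it was without ob/ob replicate 2. Without ob/ob replicate 1 the second and the last of these were 61 and 476. Of the 9 genes, 0 to 4, 0, 0 and 0 to 5 passed adjustment, and 1 to 6, 0 to 3, 0 to 2 and 1 to 5 had an unadjusted p-value under 0.05. The median difference of the 9 genes went from 0.311 to 0.857 in HFD against LFD, from 0.300 to 0.758 in ob/ob against LFD and from -0.333 to 0.489 in ob/ob against HFD. Ranges with a change of sign were -0.18 to 0.19 for Lama2 and -0.097 to 0.57 for Lamb2 in HFD against LFD, -0.38 to 0.30 for Lama2 and -0.56 to 0.76 for Lamb2 in ob/ob against LFD, and -0.20 to 0.18 for Lama2, -0.18 to 0.51 for Lamb2 and -0.061 to 0.49 for Lamb3 in obese against LFD. In ob/ob against HFD they were -0.32 to 0.44 for Lama1, -0.36 to 0.32 for Lama2, -0.33 to 1.48 for Lamb1, -0.83 to 0.49 for Lamb2, -0.96 to 0.24 for Lamc3 and -0.094 to 0.74 for Nid1. The relation to the acinar genes went from -0.0044 to 0.53 for Lama2 and from -0.92 to 0.033 for Lamb3.

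With 2 or 3 mice per group the intervals are wide, and a p-value over the threshold does not show that groups are alike. The depth is unknown, so low values such as those of Lama1 have no counting error, and shrinkage by rlog lowers their differences.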
